A study of Homo sapiens with 12 samples.

Results

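CTNNB1, the gene of beta-catenin, and 9 genes of its pathway (LEF1, TCF7, TCF7L2, AXIN2, NKD1, APCDD1, NOTUM, ZNRF3 and LGR5) were followed by RNA-seq in NCI-H295R cells. The 10 genes were picked by symbol, as beta-catenin, its DNA-binding partners, and its feedback and target genes, from the 60662 genes of the table. NCI-H295R is a human adrenocortical carcinoma line that makes cortisol and carries a mutant, stabilised beta-catenin, so every group shares that mutation. Confluent cultures of all groups first spent 12 h without serum. They then received VEH (0.1% DMSO), CJ28 (a benzimidazolylurea that inhibits cortisol synthesis, 30 µM) or MET (metyrapone, an inhibitor of the last step of cortisol synthesis, 30 µM) for 24 h, with 4 biological replicates per group and 12 samples in all. The cells come from 1 line, so the replicates are cultures and not donors.

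In the canonical Wnt pathway, a destruction complex built on AXIN and APC marks beta-catenin for degradation. A Wnt ligand bound to a Frizzled receptor and LRP5 or LRP6 stops that complex, and beta-catenin then enters the nucleus and activates genes together with DNA-binding factors of the TCF/LEF family. Many of the activated genes, among them AXIN2, NKD1, APCDD1, NOTUM and ZNRF3, restrain the pathway in turn. In the adrenal cortex the pathway is active in the outer zone, and mutations of CTNNB1 and loss of ZNRF3 are known lesions of adrenocortical carcinoma.

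TCF/LEF factors bind a short DNA motif with the core CTTTG. RefSeq promoter windows of 300 bases (250 before to 50 after a transcription start, build GRCh38.p14) were matched for 5 of the 10 genes, in 8 windows. Both strands were searched for the core and for the longer motifs CTTTGAT and, with the next letter changed, CTTTGTT, each of which contains the core. CTTTGAT was in none of the 8 windows and is in 2.62% of all 35116 windows. CTTTGTT was in 1 window of TCF7 and in 1 of TCF7L2, and is in 5.20% of all windows. The core is in 47.5% of all windows and was in 4 of these 8. The window of APCDD1 is shown because this gene changed most of the 10. Windows of TCF7, TCF7L2 and LEF1 are shown because these are the 3 factors whose levels were compared. TCF7 and TCF7L2 had more than 1 window, and the one with CTTTGTT was picked for each. The first windows of TCF7 and TCF7L2 held none of the 3 motifs. Capitals mark every CTTTG or its reverse complement CAAAG. The sequences read 5′ to 3′ along the gene.
APCDD1, chr18:10454385-10454684, plus strand: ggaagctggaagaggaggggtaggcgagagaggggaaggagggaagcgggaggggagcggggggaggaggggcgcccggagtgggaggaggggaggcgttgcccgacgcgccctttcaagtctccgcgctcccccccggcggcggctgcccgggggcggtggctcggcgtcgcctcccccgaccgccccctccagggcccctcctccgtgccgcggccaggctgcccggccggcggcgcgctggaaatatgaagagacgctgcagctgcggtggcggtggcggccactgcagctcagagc
TCF7, second window, chr5:134123368-134123667, plus strand: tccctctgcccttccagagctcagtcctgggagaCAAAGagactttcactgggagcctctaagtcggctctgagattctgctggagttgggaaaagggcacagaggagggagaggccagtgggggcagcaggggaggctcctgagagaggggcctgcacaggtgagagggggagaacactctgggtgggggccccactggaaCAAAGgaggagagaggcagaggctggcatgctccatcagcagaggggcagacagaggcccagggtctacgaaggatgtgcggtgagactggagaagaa
TCF7L2, second window, chr10:113126383-113126682, plus strand: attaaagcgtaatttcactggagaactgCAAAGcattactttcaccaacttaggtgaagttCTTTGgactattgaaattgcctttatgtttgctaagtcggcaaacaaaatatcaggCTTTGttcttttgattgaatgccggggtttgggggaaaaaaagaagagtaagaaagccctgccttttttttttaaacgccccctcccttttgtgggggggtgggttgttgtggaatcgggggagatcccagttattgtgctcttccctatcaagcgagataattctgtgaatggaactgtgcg
LEF1, chr4:108166252-108166551, minus strand: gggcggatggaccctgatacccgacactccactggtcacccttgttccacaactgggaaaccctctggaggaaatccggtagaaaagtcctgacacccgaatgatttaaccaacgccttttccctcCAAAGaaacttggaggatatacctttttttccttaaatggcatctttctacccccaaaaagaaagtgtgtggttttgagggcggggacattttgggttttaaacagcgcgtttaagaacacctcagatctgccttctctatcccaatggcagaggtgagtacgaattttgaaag
The windows shown for TCF7, TCF7L2 and LEF1 surround starts that lie inside the span of the gene. CTTTGTT lay 50 bases before the start in TCF7, on the reverse strand, and 133 bases before the start in TCF7L2. The LEF1 window held the core 124 bases before the start, and the APCDD1 window held none of the 3 motifs. A match is a string of letters and not a measured binding site.

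The values are TPM, the share that a gene takes of all transcripts in a sample once transcript length is allowed for, so levels of different genes are on a per-length scale. TPM keeps no read depth, so no counting error or detection limit was derived here. A larger share for some RNAs also lowers the TPM of the rest. That share moved with CJ28. Nuclear protein-coding genes held 24.3 to 24.8% of TPM in VEH, 24.1 to 24.6% in MET and 21.3 to 21.4% in CJ28. In the same order, RN7SL1 and RN7SL2, the RNAs of the signal recognition particle, held 29.7 to 32.7%, 31.4 to 32.9% and 36.0 to 38.2%. The median log2 fold change of all 16815 genes tested was -0.13 for CJ28 against VEH, and 0.01 after each sample was scaled by its median ratio to the others. Values after that scaling are given wherever they end a call. The adrenocortical character of the cells was followed by 11 adrenocortical markers, led by CYP11A1, of which 9 were expressed enough to be tested. Such markers do not establish the identity of a line. CYP11B1 and CYP11B2, the last enzymes of cortisol and aldosterone synthesis, were at most 0.05 and 0.03 TPM in any sample. The summed TPM of the 11 markers was 275.1 to 286.0 in VEH, 273.9 to 287.5 in MET and 115.2 to 122.3 in CJ28. NR0B1 went against the sum, from a mean of 2.94 TPM in VEH to 5.81 TPM in CJ28. Markers of adrenal medulla, endothelium, fibroblasts and leukocytes had no member with a mean of 1 TPM.

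All 10 genes passed the filter of at least 0.5 TPM in at least 4 samples. With CJ28, 8 of the 10 fell, led by APCDD1, TCF7 and LGR5, and LEF1 and NOTUM did not pass the test. Of all genes tested, 57.0% were called with CJ28 and 37.1% were called lower, and after scaling 6 of the 10 were called lower against 26.3% of all genes. With MET, 0 of the 10 passed the test, against 0.00595% of all genes. In bulk RNA, fewer cells that express a gene and less RNA per cell cannot be told apart, which holds for each value that follows.

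**Figure D1:**
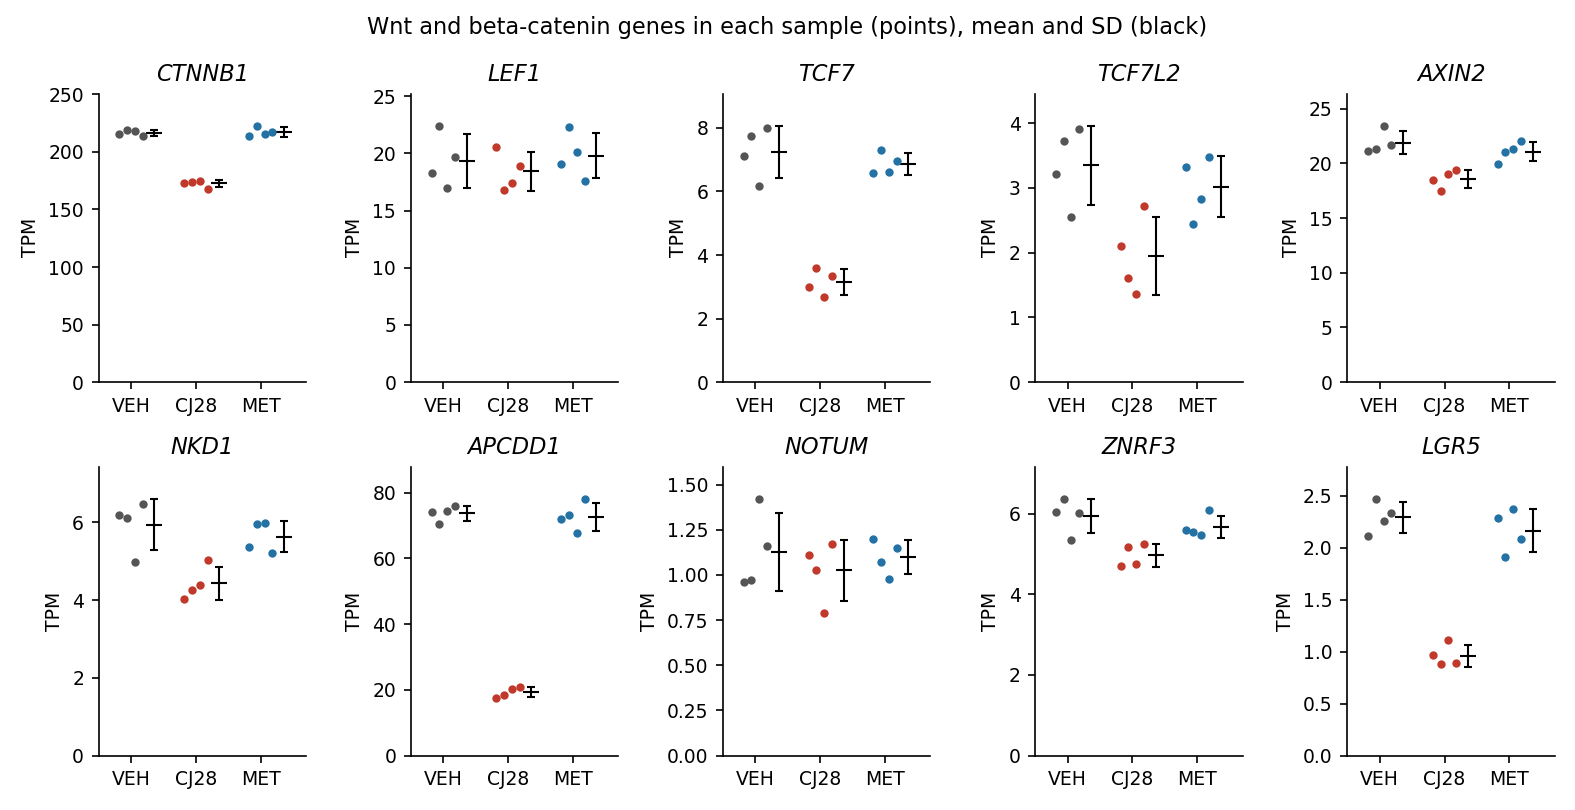
TPM of each of the 10 genes (vertical axes, linear) in the 4 VEH, 4 CJ28 and 4 MET samples. Points are samples and bars the mean ± SD (n = 4). APCDD1, TCF7 and LGR5 lie lower in all 4 CJ28 samples than in any VEH or MET sample, while LEF1 and NOTUM overlap in all 3 groups.

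CTNNB1 (ENSG00000168036.18, chr3:41194741-41260096, plus strand, GRCh38) encodes beta-catenin, which is both the pathway's transcriptional coactivator and a part of cadherin junctions. It had the highest level of the 10 genes, at the 98.6th percentile of all genes tested in VEH. The 4 VEH samples had 215.19, 218.84, 218.31 and 214.05 TPM. The CJ28 samples had 173.36, 173.96, 175.00 and 168.12 TPM. The MET samples had 213.84, 222.90, 215.39 and 217.09 TPM. All CJ28 samples were below all VEH and MET samples, whose ranges overlapped. The mean was 216.6 ± 2.34 TPM (SD, n = 4) in VEH and 172.6 ± 3.07 TPM in CJ28, which is 79.7% of VEH. The log2 fold change was -0.33 (SE 0.024, limma, Benjamini-Hochberg adjusted p = 1.71e-07), and -0.17 after scaling (adjusted p = 5.92e-04, limma). TPM sums over normal and mutant transcripts, so it does not tell the alleles apart.

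Of the TCF/LEF factors, which carry beta-catenin to DNA, TCF7 and TCF7L2 fell with CJ28, and LEF1 did not pass the test. LEF1 (ENSG00000138795.10, chr4:108047545-108168956, minus strand), the most abundant of the family here, had 18.28, 22.44, 17.00 and 19.70 TPM in VEH. It had 20.58, 16.78, 17.42 and 18.93 TPM in CJ28. It had 19.11, 22.30, 20.11 and 17.61 TPM in MET. The 3 groups overlapped throughout. The LEF1 log2 fold change for CJ28 was -0.07 with a 95% interval from -0.27 to 0.14 (adjusted p = 0.567, limma), and 0.08 after scaling, so its sign depends on the scaling.

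TCF7 (ENSG00000081059.20, chr5:134114681-134151865, plus strand), the factor TCF1 best known from T cells, had 7.11, 7.74, 6.16 and 8.0 TPM in VEH. Its CJ28 samples had 2.99, 3.60, 2.69 and 3.34 TPM. Its MET samples had 6.58, 7.30, 6.62 and 6.96 TPM. Every CJ28 sample was lower than every VEH and MET sample. The mean fell to 43.5% of VEH, a log2 fold change of -1.18 (SE 0.097, adjusted p = 4.81e-07, limma) and of -1.03 after scaling. Over 2931 bases at its 3′ end TCF7 overlaps SKP1 on the opposite strand, a far more abundant gene of ubiquitin ligase complexes. SKP1 went from 304.3 TPM in VEH to 169.1 TPM in CJ28 (log2 fold change -0.85), and whether its reads entered the TCF7 value was not tested.

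TCF7L2 (ENSG00000148737.17, chr10:112950247-113167678, plus strand), the factor TCF4 of the intestinal epithelium, was lower and more variable. It had 3.22, 3.73, 2.55 and 3.91 TPM in VEH. It had 2.11, 1.61, 1.36 and 2.72 TPM in CJ28, and 3.32, 2.44, 2.83 and 3.47 TPM in MET. CJ28 replicate 4 lay above VEH replicate 3, so the groups overlapped. The TCF7L2 log2 fold change was -0.78 (SE 0.198, adjusted p = 0.00486, limma), whereas the exact two-sided permutation test of the mean TPM gave p = 0.0571 (n = 4 against 4, smallest possible 0.0286). RPS15AP30, a pseudogene within TCF7L2 on the same strand, had 0.785 TPM in VEH and 0.22 TPM in CJ28. The fourth family member, TCF7L1, was at most 0.16 TPM in any sample and was not tested.

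Because a ratio of genes within 1 sample does not depend on the scaling, the make-up of the family was also computed, a step chosen after values had been seen. Of the summed TPM of LEF1, TCF7, TCF7L2 and TCF7L1, LEF1 made up 64.4% ± 1.85 (SD, n = 4) in VEH, 66.5% ± 2.97 in MET and 78.0% ± 2.83 in CJ28. TCF7 made up 24.2% ± 1.10 in VEH, 13.4% ± 2.02 in CJ28 and 23.1% ± 1.12 in MET. The CJ28 samples did not overlap VEH for either share. Both shares are parts of the same sum, so they are not separate results. Any SKP1 reads in the TCF7 value would enter both, which was not tested. The exact two-sided permutation test gave p = 0.0286 for each share, the smallest it can give, and 0.0714 when adjusted over the 10 within-sample comparisons computed, which does not pass 0.05.

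Among the feedback inhibitors, APCDD1 fell most, NKD1, ZNRF3 and AXIN2 fell less, and NOTUM did not pass the test. APCDD1 (ENSG00000154856.13, chr18:10454635-10489949, plus strand) is a membrane glycoprotein that binds Wnt and LRP5. It had 74.21, 70.47, 74.49 and 75.80 TPM in VEH. It had 17.57, 18.40, 20.27 and 20.83 TPM in CJ28. It had 71.94, 73.11, 67.65 and 78.02 TPM in MET. The highest CJ28 sample was far below the lowest VEH and MET samples. The mean was 73.7 ± 2.29 TPM in VEH and 19.3 ± 1.54 TPM in CJ28, which is 26.1% of VEH. This is a log2 fold change of -1.93 (SE 0.057, 95% interval -2.06 to -1.81, adjusted p = 3.96e-11, limma) and -1.78 after scaling. Only 108 of the 16815 genes tested (0.642%) had a lower log2 fold change.

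AXIN2 (ENSG00000168646.13, chr17:65528563-65561648, minus strand) is the inducible scaffold of the destruction complex and the usual readout of the pathway. Its VEH samples had 21.12, 21.34, 23.46 and 21.72 TPM. Its CJ28 samples had 18.44, 17.44, 18.99 and 19.43 TPM, and its MET samples had 19.93, 21.07, 21.29 and 22.06 TPM. CJ28 lay below both other groups without overlap. The log2 fold change was -0.24 (SE 0.048, adjusted p = 0.00102, limma), with a mean at 84.8% of VEH. After scaling it was -0.09 (adjusted p = 0.208, limma), so the call was lost. AXIN2 was 10.1% ± 0.455 of the CTNNB1 TPM in VEH and 10.8% ± 0.632 in CJ28 (exact permutation p = 0.171). The APCDD1 level was 3.37 ± 0.161 times that of AXIN2 in VEH, 1.04 ± 0.0565 times in CJ28 and 3.45 ± 0.189 times in MET (exact permutation p = 0.0286 for CJ28 against VEH, 0.0714 adjusted over the 10 comparisons).

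NKD1 (ENSG00000140807.7, chr16:50548396-50649249, plus strand), which binds Dishevelled, had 6.18, 6.12, 4.98 and 6.47 TPM in VEH. It had 4.02, 4.27, 4.38 and 5.03 TPM in CJ28, and 5.36, 5.96, 5.98 and 5.20 TPM in MET. CJ28 replicate 4 lay just above VEH replicate 3, and CJ28 lay below all MET samples. The NKD1 log2 fold change was -0.41 (SE 0.092, adjusted p = 0.00195, limma) and -0.26 after scaling (adjusted p = 0.0190, limma), while the exact permutation test of mean TPM gave p = 0.0571. ZNRF3 (ENSG00000183579.16, chr22:28883572-29057488, plus strand), a membrane ubiquitin ligase that removes Frizzled and LRP6 from the surface, had 6.04, 6.35, 5.35 and 6.01 TPM in VEH. It had 4.69, 5.18, 4.74 and 5.24 TPM in CJ28, and 5.60, 5.55, 5.46 and 6.08 TPM in MET. The CJ28 samples were below all others. The ZNRF3 log2 fold change was -0.25 (SE 0.065, adjusted p = 0.00495, limma), and -0.10 after scaling (adjusted p = 0.148, limma), so this call was lost too. NOTUM (ENSG00000185269.12, chr17:81952507-81961840, minus strand), a secreted enzyme that strips the lipid from Wnt ligands, had 0.96, 0.97, 1.42 and 1.16 TPM in VEH. It had 1.11, 1.03, 0.79 and 1.17 TPM in CJ28, and 1.20, 1.07, 0.98 and 1.15 TPM in MET. The groups overlapped, with a log2 fold change of -0.12 and a 95% interval from -0.45 to 0.20 (adjusted p = 0.508, limma), and 0.02 after scaling.

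LGR5 (ENSG00000139292.13, chr12:71439798-71586310, plus strand) is a stem cell marker and a receptor through which R-spondins hold ZNRF3 in check. It had 2.11, 2.47, 2.26 and 2.34 TPM in VEH. It had 0.97, 0.88, 1.11 and 0.89 TPM in CJ28. It had 2.29, 1.91, 2.37 and 2.09 TPM in MET. Every CJ28 sample was below every other sample, and the CJ28 mean was 41.9% of VEH. Its log2 fold change was -1.18 (SE 0.099, adjusted p = 5.79e-07, limma) and -1.03 after scaling. At this level the pseudocount weighs on the value, which was -0.75 with a pseudocount of 1 in place of 0.1. Relative to AXIN2 in the same sample, LGR5 was 10.5% ± 0.864 in VEH, 10.3% ± 1.20 in MET and 5.18% ± 0.525 in CJ28, with the same exact permutation p of 0.0286 (0.0714 adjusted) for CJ28 against VEH. LGR4, a relative of LGR5 added after its values were seen, had 3.15 TPM in VEH and 2.37 TPM in CJ28. Its log2 fold change was -0.40 (adjusted p = 0.0444, limma) and its groups overlapped. After scaling LGR4 was not called (adjusted p = 0.1865, limma).

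**Figure D2:**
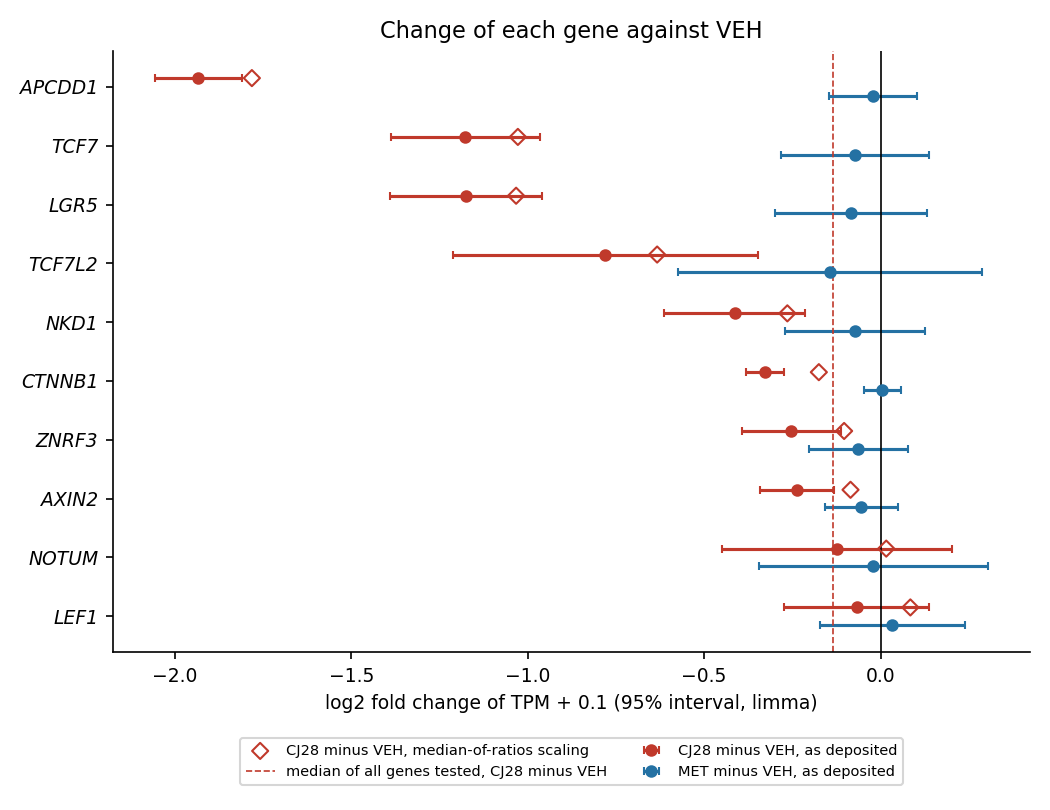
Log2 fold change of each gene against VEH (horizontal axis, log2 of TPM + 0.1) for CJ28 (red) and MET (blue). Bars are 95% intervals from limma, open diamonds the CJ28 values after median-of-ratios scaling, and the dashed line the CJ28 median of all genes tested. The MET intervals all include 0, and the CJ28 diamonds of LEF1 and NOTUM lie on the other side of 0 from the unscaled values.

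The 8 of 10 genes called for CJ28 stood in a background in which 57.0% of all genes tested were called, 37.1% lower and 19.9% higher. After scaling, 6 of the 10 were called, all lower, against 55.6% of all genes, 26.3% lower and 29.3% higher. The 4 factors and targets with the largest falls, APCDD1, TCF7, LGR5 and TCF7L2, had lower log2 fold changes than most genes: 0.642%, 4.47%, 4.48% and 11.8% of all genes tested lay below them. AXIN2, ZNRF3, NOTUM and LEF1 lay near the middle, with 41.2%, 39.8%, 50.9% and 55.6% of genes below them. NKD1 and CTNNB1 lay between, with 28.0% and 34.2% of genes below them. The TPM of CJ28 and VEH did not overlap for 6 of the 10 genes, against 50.3% of all genes tested. The median log2 fold change of the 10 was -0.37 against -0.13 for all genes, and -0.22 against 0.01 after scaling. In the same CJ28 samples, the summed adrenocortical markers given above were also lower, although NR0B1 among them rose (log2 fold change 0.96, adjusted p = 7.60e-06, limma). Whether the lower sum has a part in these values was not tested.

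**Figure D3:**
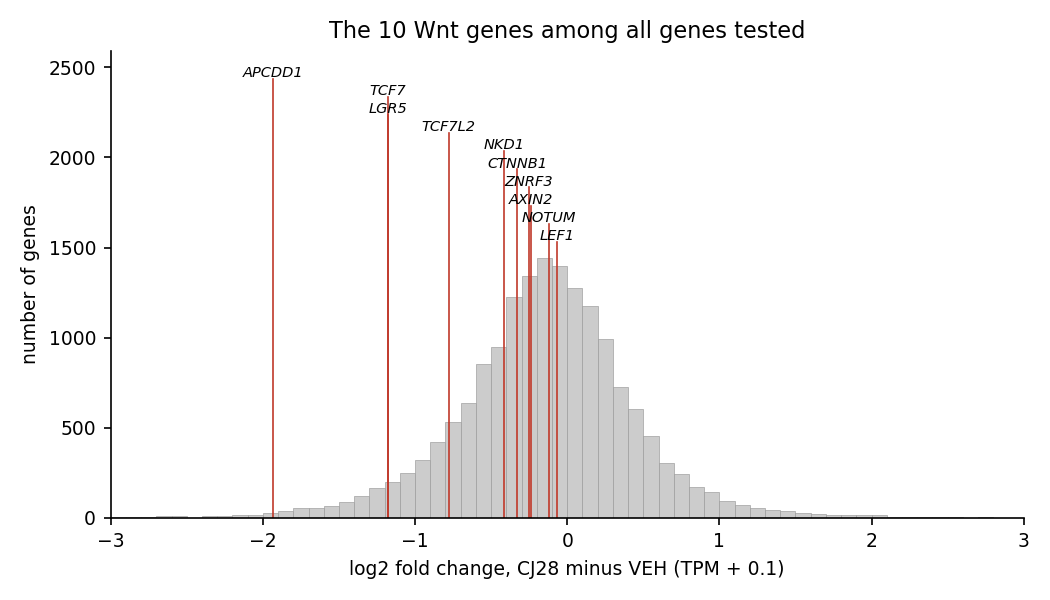
Number of genes (vertical axis) by log2 fold change of CJ28 against VEH (horizontal axis, bins of log2 of TPM + 0.1) among the 16815 genes tested; the few beyond the axis ends are not drawn. Red lines mark the 10 genes: APCDD1 at -1.93 stands in the lower tail, TCF7 and LGR5 at -1.18 on its shoulder, and LEF1 and NOTUM near the peak.

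MET left the 10 genes without a call. Their log2 fold changes for MET against VEH ran from -0.14 for TCF7L2 to 0.03 for LEF1, and the smallest adjusted p was 0.956 for AXIN2 (limma). None of the 10 had an unadjusted p under 0.05 and 0 of 10 were separated from VEH without overlap, against 1 called gene among all 16815 (0.00595%) and 2.81% without overlap. At an unadjusted p under 0.05 there were 874 genes in all. The intervals limit what MET could have done: for CTNNB1 the 95% interval of the log2 fold change ran from -0.05 to 0.06, for APCDD1 from -0.15 to 0.10, and for AXIN2 from -0.16 to 0.05. TCF7L2 and NOTUM were the least precise, from -0.57 to 0.29 and from -0.35 to 0.30.

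CJ28 and MET, given at the same dose and time, were also compared directly, with the VEH samples adding to the spread estimate only. Again 8 of the 10 genes were lower with CJ28, against 55.5% of all genes called and 34.6% called lower. APCDD1 differed most (log2 fold change -1.91, adjusted p = 4.49e-11, limma), followed by TCF7 at -1.10 and LGR5 at -1.09. TCF7L2 was -0.64 (adjusted p = 0.0158, limma), NKD1 -0.34 and CTNNB1 -0.33. ZNRF3 at -0.19 (adjusted p = 0.0245, limma) and AXIN2 at -0.18 (adjusted p = 0.00598, limma) passed, but neither did after scaling (adjusted p = 0.323 and 0.366). For ZNRF3 the call also ended without CJ28 replicate 1, CJ28 replicate 3 or MET replicate 4, with adjusted p = 0.0699, 0.0646 and 0.0742 in limma. LEF1 and NOTUM were both at -0.10, with 95% intervals from -0.31 to 0.10 and from -0.43 to 0.22. CJ28 and MET differ in structure as a benzimidazolylurea and a dipyridyl ketone, and not by a single change.

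The order of the levels differed between VEH and CJ28. In VEH, CTNNB1 and APCDD1 stood well above the rest, AXIN2 and LEF1 followed with ranges that overlapped, and TCF7, NKD1 and ZNRF3 overlapped one another. TCF7L2, LGR5 and NOTUM came last, each separated from its neighbours. In CJ28, CTNNB1 was still first, while APCDD1 (19.3 TPM), AXIN2 (18.6 TPM) and LEF1 (18.4 TPM) could no longer be separated. TCF7 (3.16 TPM) was below ZNRF3 (4.96 TPM) and NKD1 (4.43 TPM) and overlapped TCF7L2 (1.95 TPM), and LGR5 (0.963 TPM) overlapped NOTUM (1.03 TPM) at the bottom. Within groups, VEH replicate 3 was the lowest of its group for LEF1, TCF7, TCF7L2, NKD1 and ZNRF3 and the highest for AXIN2 and NOTUM. CJ28 replicate 4 was the highest of its group for 6 of the 10 genes.

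The genes whose pattern over the 12 samples was most like that of AXIN2 were not pathway genes. Likeness was taken as the smallest root mean square difference of log2(TPM + 0.1), each gene set to its VEH mean, over 13306 genes with a mean of at least 1 TPM. The spread of replicates enters this difference, so genes with variable replicates lie farther off even where their mean change is similar. BCAP29 was nearest at 0.0418, then SRSF9 at 0.0493, TRUB2 at 0.0497, CEP63 at 0.050 and CHTOP at 0.0511. The nearest of the other 9 genes was CTNNB1 at 0.0867, with 316 genes nearer, and the farthest was APCDD1 at 0.982, with 12973 genes nearer. AXIN2 and APCDD1, both feedback inhibitors, thus had patterns of very different size.

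The wider pathway was described by a list of 116 other Wnt genes, of which 76 were expressed enough to be tested. With CJ28, 35 fell, 19 rose and 22 did not pass the test, so that 54 of 76 were called, against 57.0% of all genes tested (37.1% lower and 19.9% higher). The median was -0.22. After scaling 29 were lower and 22 higher, against 26.3% and 29.3% of all genes. The CJ28 and VEH samples did not overlap for 48 of the 76, against 50.3% of all genes. With MET, 0 of the 76 were called, against 0.00595% of all genes, and the smallest adjusted p was 0.889 (limma). An unadjusted p under 0.05 (limma) was found for 2 of the 76 (DKK3 and DVL1) and for 874 of all 16815 genes. Separation of MET from VEH without overlap was seen for 3 of the 76 (DKK3, DVL1 and DVL2), beside 2.81% of all genes.

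**Figure D4:**
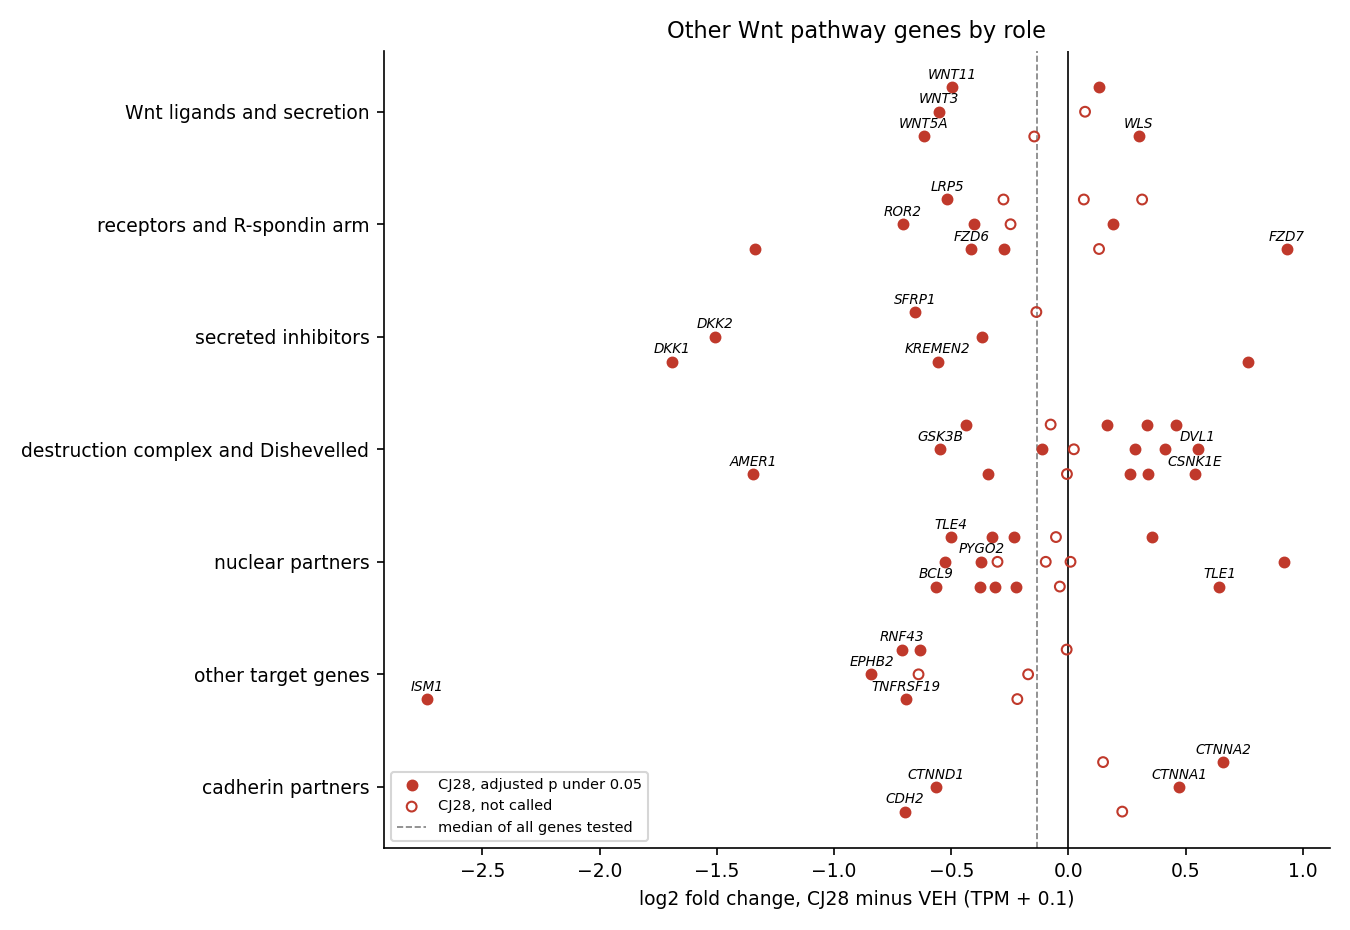
Log2 fold change of CJ28 against VEH (horizontal axis, log2 of TPM + 0.1) for the 76 tested genes of the wider Wnt pathway, one point per gene, by role (vertical axis); filled points passed an adjusted p under 0.05 and the labels give named genes. Falls down to -2.74 for ISM1 stand among the other targets. The group labelled secreted inhibitors, which also holds the receptors KREMEN1 and KREMEN2, is mostly lower. The destruction complex and Dishevelled group has more genes higher than lower.

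At the ligand end, 7 of 21 genes for ligands and their secretion were tested, and 3 fell and 2 rose, against 37.1% and 19.9% of all genes. WNT11 (12.6 TPM in VEH, 8.94 in CJ28, log2 fold change -0.49), WNT5A (1.86 and 1.17 TPM, -0.62) and WNT3 (1.68 and 1.11 TPM, -0.55) fell. WNT4, the most abundant ligand in VEH, was added after its values were seen. It was called higher, from 17.8 to 19.6 TPM (0.13, adjusted p = 0.0397, limma, or 0.28 after scaling), though its CJ28 and VEH samples overlapped. WLS, the carrier that brings Wnt ligands to the cell surface, rose from 31.7 to 38.9 TPM (0.30, or 0.45 after scaling). Of the 19 Wnt ligands on the list, 14 were too low to test, with no sample above 0.52 TPM, and none of the 4 R-spondins exceeded 0.20 TPM in any sample.

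Of 13 tested receptor genes, 6 fell and 2 rose, or 5 and 3 after scaling, beside all-gene shares of 37.1% lower and 19.9% higher, or 26.3% and 29.3%. The largest rise was in FZD7, a Frizzled receptor, with 4.92, 4.66, 4.77 and 5.03 TPM in VEH and 8.85, 9.59, 9.03 and 9.88 TPM in CJ28. Its MET samples, at 4.81, 5.26, 4.90 and 4.90 TPM, stayed in the VEH range but for replicate 2. The FZD7 log2 fold change was 0.93 (SE 0.052, adjusted p = 1.23e-08, limma). The largest fall was in FZD1, which was too low for the naming rule and was added after its values were seen. It went from 0.58 to 0.17 TPM (-1.34, adjusted p = 3.07e-05, limma, or -1.23 after scaling). ROR2, a receptor for WNT5A, fell from 4.33 to 2.62 TPM (-0.71) and FZD6 from 15.8 to 11.8 TPM (-0.41, or -0.26 after scaling). The co-receptors LRP5 and LRP6 fell by 0.52 and 0.27 on the log2 scale, with LRP6 at -0.12 after scaling.

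The group of secreted inhibitors also holds KREMEN1 and KREMEN2, which are receptors and not secreted. Of its 7 tested genes, 5 fell and 1 rose, or 4 and 1 after scaling. Among all genes 37.1% were lower and 19.9% higher, or 26.3% and 29.3% after scaling. DKK1, which blocks LRP6 and is itself a known target of beta-catenin, had 2.1, 2.45, 1.66 and 2.52 TPM in VEH and 0.53, 0.46, 0.69 and 0.75 TPM in CJ28. Its MET samples had 2.14, 1.51, 1.75 and 1.58 TPM, above all CJ28 samples. The DKK1 log2 fold change for CJ28 was -1.69 (SE 0.171, adjusted p = 3.15e-06, limma). DKK2, of the same family, fell from 6.33 ± 0.203 to 2.17 ± 0.252 TPM (SD, n = 4 each), a log2 fold change of -1.51 (adjusted p = 6.28e-09, limma), with MET at 6.35 TPM. SFRP1, which binds Wnt ligands, fell by 0.65 on the log2 scale. KREMEN2, a receptor for DKK proteins, was called lower (-0.56, adjusted p = 0.0144, limma) but not after scaling (adjusted p = 0.0559, limma).

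In the destruction complex and Dishevelled group all 17 genes were tested, and 5 fell while 9 rose, or 4 and 10 after scaling. Among all genes tested 37.1% fell and 19.9% rose, or 26.3% and 29.3% after scaling. AMER1, a membrane scaffold for APC and beta-catenin, had 3.49, 3.98, 3.57 and 3.89 TPM in VEH and 1.31, 1.38, 1.42 and 1.52 TPM in CJ28. Its MET samples had 3.47, 3.48, 3.57 and 3.32 TPM, so CJ28 alone lay apart. The AMER1 log2 fold change was -1.35 (SE 0.069, adjusted p = 5.38e-09, limma). GSK3B, the kinase that marks beta-catenin for degradation, fell from 24.5 to 16.8 TPM (-0.55). CSNK1A1, the kinase that primes beta-catenin for GSK3B, rose from 36.9 to 46.8 TPM (0.34), CSNK1E from 15.6 to 22.7 TPM (0.54) and DVL1, a Dishevelled protein, from 4.22 to 6.24 TPM (0.55).

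Of 17 tested nuclear partners, 9 fell and 3 rose, or 6 and 3 after scaling, against 37.1% and 19.9% of all genes, or 26.3% and 29.3% after scaling. TLE1, a Groucho corepressor that binds TCF/LEF factors in place of beta-catenin, had 63.69, 64.69, 61.16 and 64.61 TPM in VEH and 97.08, 98.47, 99.68 and 102.28 TPM in CJ28. MET samples had 63.15, 62.08, 61.04 and 63.42 TPM. The TLE1 log2 fold change was 0.64 (SE 0.029, adjusted p = 1.72e-09, limma) and 0.80 after scaling. Its relatives differed in direction. TLE3, which was too low for the naming rule and was added after its values were seen, rose from 0.585 to 1.20 TPM (0.92, adjusted p = 0.00167, limma). TLE2 was not called (0.0089, 95% interval -0.28 to 0.30). TLE4 fell by 0.50 and TLE5 by 0.32 on the log2 scale, with TLE5 at -0.17 after scaling. The coactivators BCL9 and PYGO2, which bind in a chain to beta-catenin, fell by 0.57 and 0.37, with PYGO2 at -0.22 after scaling. Mean BCL9 was 6.3 TPM in VEH, 4.2 TPM in CJ28 and 4.9 TPM in MET, and its CJ28 and MET samples overlapped. BCL9 was not called for CJ28 against MET (log2 fold change -0.22, adjusted p = 0.27, limma).

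Of 9 other target genes tested, 5 fell and 0 rose, also after scaling, against all-gene shares of 37.1% and 19.9%, or 26.3% and 29.3% after scaling. ISM1, a secreted protein, had 9.49, 9.71, 9.98 and 10.36 TPM in VEH and 1.33, 1.24, 1.45 and 1.59 TPM in CJ28. Its MET samples had 9.74, 9.81, 9.35 and 9.68 TPM. The ISM1 log2 fold change of -2.74 (SE 0.068, adjusted p = 9.18e-12, limma) was the lowest of the 76 genes. RNF43, the relative and partner of ZNRF3, had 9.56, 10.79, 8.95 and 10.82 TPM in VEH and 5.52, 6.88, 5.25 and 6.78 TPM in CJ28, a log2 fold change of -0.71 (adjusted p = 2.93e-05, limma). TNFRSF19, a receptor of the tumour necrosis factor family, fell from 34.0 ± 1.20 to 21.0 ± 0.847 TPM (-0.69), and EPHB2, a receptor kinase of intestinal crypts, from 4.15 to 2.27 TPM (-0.84). MYC and CCND1, given here because they are the most widely cited targets and chosen after their values were seen, were not called. MYC had a log2 fold change of -0.17 (adjusted p = 0.114, limma), and CCND1 was at most 0.30 TPM in any sample and was not tested.

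**Figure D5:**
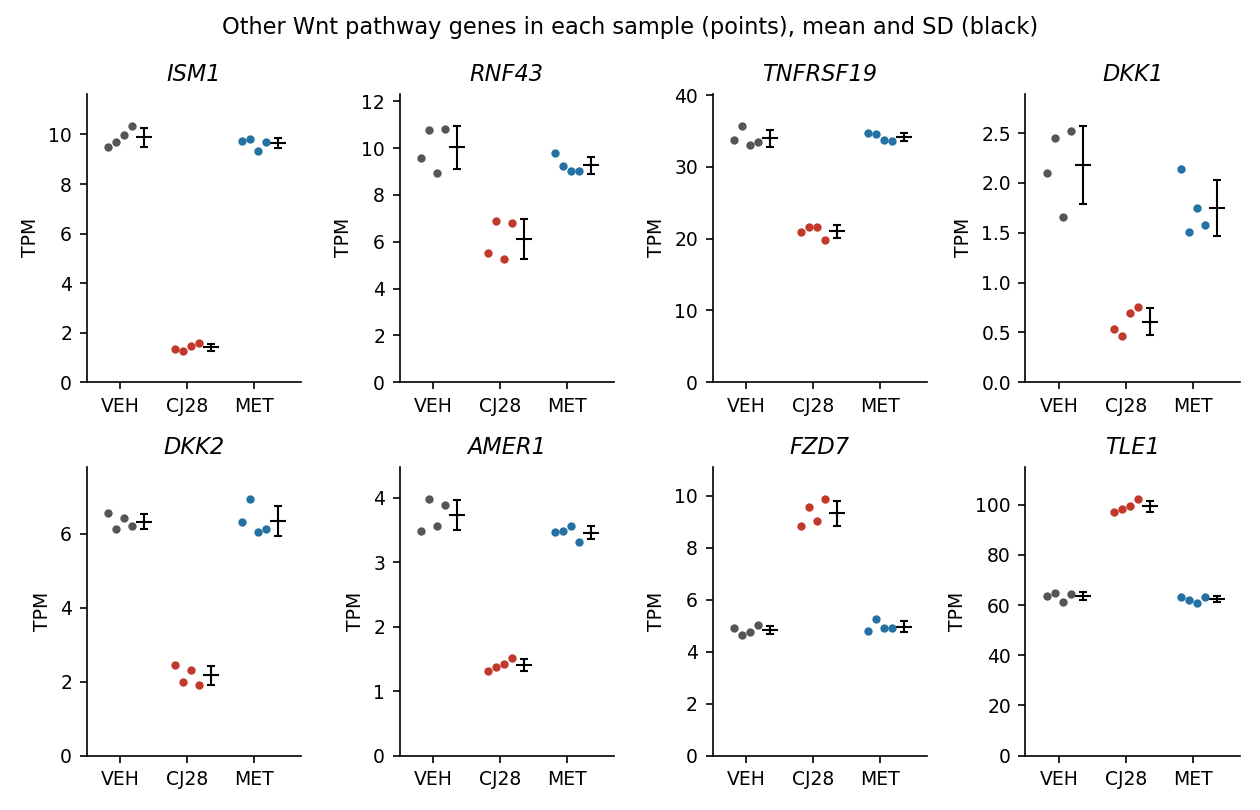
TPM (vertical axes, linear) of 8 named genes of the wider Wnt pathway in the 4 VEH, 4 CJ28 and 4 MET samples, points being samples and bars the mean ± SD (n = 4). ISM1, DKK1, DKK2, AMER1, RNF43 and TNFRSF19 are lower in all 4 CJ28 samples than in any VEH sample, and FZD7 and TLE1 are higher.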

How the data were processed

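RNA was depleted of ribosomal RNA and made into stranded libraries. Per the labels, the authors used cutadapt (2.8), STAR (2.7.10b) and RSEM (1.3.3) with GRCh38, and deposited TPM with 2 decimals for each of 60662 genes. RSEM's strand setting is not given in the sources used here, and the reads were not analysed here. TPM does not carry the read depth, so no value is given a counting error. Groups came from the sample labels. In limma (3.58.1, R 4.3.3), log2(TPM + 0.1) was fitted for the 16815 genes with at least 0.5 TPM in at least 4 samples, all 12 samples in one fit without covariates, with a variance trend and two-sided p-values adjusted over all these genes (Benjamini-Hochberg, called under 0.05). Single values were compared by exact two-sided permutation tests in scipy (1.17.1). Fold changes are on the log2(TPM + 0.1) scale, which understates those of low genes. The gene spans equal those of GENCODE 44 for all 10 genes. The genes and lists were chosen with earlier results of these data known. Of the wider list, the 4 largest called changes per role with a mean of at least 1 TPM and no overlap, and the most abundant gene, are named. Alternatives were pseudocounts of 1 and 0.01, other filters, median-of-ratios scaling (22436 genes), fits of only the groups compared, with a replicate block or without the trend, each sample left out, and, added after seeing the data, TPM over nuclear protein-coding genes alone.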

Additional observations from a re-analysis of the deposited data

How the results depend on the processing

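Over 21 alternatives the CJ28 count against VEH was 6 to 8 of the 10 genes, the MET count 0, and the wider pathway count 49 to 54 of 76 for CJ28. Of all genes, CJ28 against VEH called 57.0% in the main fit and 55.6% with median-of-ratios scaling. MET against VEH called 0.00595% in the main fit. TPM over nuclear protein-coding genes alone (chosen after seeing the data) called 5 of the 10 genes for CJ28 against MET. Of all 12506 genes tested with that TPM, 8211 were called for CJ28 against MET and 8205 for CJ28 against VEH. Leaving out 1 sample called 7 to 8 of the 10 for CJ28 against MET, beside 8755 to 9362 of all 16815 genes. AXIN2 and ZNRF3 lost their CJ28 calls with that TPM and with median-of-ratios scaling, and with that TPM NKD1 lost its call against MET (log2 fold change -0.154). The log2 fold changes that changed sign belong to LEF1 for CJ28 against VEH (0.0846 with scaling, 0.137 with nuclear protein-coding TPM, -0.127 to 0.006 leaving out 1 sample) and against MET (0.02 and 0.0892), and for MET (-0.0258 to 0.107 leaving out 1 sample). They also belong to NOTUM for CJ28 against VEH (0.0162 and 0.065) and against MET (0.00833 and 0.0722, and -0.165 to 0.00589 leaving out 1 sample), and for MET (0.00787 with scaling, -0.0855 to 0.0878 leaving out 1 sample). AXIN2 for CJ28 against MET became 0.00795 with nuclear protein-coding TPM. For MET, APCDD1 became 0.00879 with scaling and ran from -0.0569 to 0.0116, and CTNNB1 from -0.00769 to 0.0123, leaving out 1 sample. The cause was not tested. Replicate numbers did not pair the samples: the deviations of equal numbers correlated at a mean of 0.0236 for CJ28 and VEH, and 2 of 8 samples correlated best with their own number. The replicate block called 8, 0 and 8 of the 10 genes (CJ28 against VEH, MET against VEH, CJ28 against MET) and 53 of the 76 wider pathway genes for CJ28 against VEH. In the same order of comparisons it called 9546, 1 and 9361 of all 16815 genes. TPM keeps no depth, so the precision rests on the spread of 4 cultures per group, and NOTUM and TCF7L2 had the widest intervals.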

Other observations

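Beta-catenin also binds cadherins at cell junctions, and 6 of 8 genes of that list were tested. With CJ28, 2 fell and 2 rose, or 2 and 3 after median-of-ratios scaling, against 37.1% and 19.9% of all genes tested, or 26.3% and 29.3%. CDH2, N-cadherin, fell from 12.5 ± 0.463 to 7.68 ± 0.786 TPM (SD, n = 4 each), a log2 fold change of -0.70 (adjusted p = 2.42e-06, limma), with MET at 12.3 TPM. CTNND1, the p120 catenin that holds cadherins at the membrane, fell from 17.4 to 11.8 TPM (-0.56). Of the alpha-catenins, which tie the junction to actin, CTNNA1 rose from 92.0 to 127.7 TPM (0.47). CTNNA2 rose from 30.1 to 47.6 TPM (0.66, adjusted p = 2.97e-09, limma). CTNNA3, with 3.87 TPM in VEH and 4.23 TPM in CJ28, was not called (0.15, adjusted p = 0.507, limma), nor was it after scaling. CDH1, E-cadherin, was at most 0.36 TPM in any sample.

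DKK3, a divergent relative of DKK1 named after its values were seen, was the wider pathway gene with the smallest p for MET. It had 4.57, 4.66, 4.80 and 4.88 TPM in VEH and 3.86, 4.11, 3.67 and 4.19 TPM in MET, without overlap. The log2 fold change was -0.25 with an unadjusted p of 7.46e-04 in limma, and 0.889 after adjustment, so it did not pass. Its CJ28 samples had 3.79, 3.59, 3.65 and 3.51 TPM.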
